A study of Mus musculus with 7 samples.

Results

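Of the 1926 differentially methylated regions (DMRs) between Scnn1b-Tg and WT airway macrophages (AMs), 63 carried the symbol of a microRNA gene, and these 63 DMRs were assigned to 53 genes. A DMR was taken as a member when the gene symbol in the deposited table began with Mir and a digit or with Mirlet. This symbol is that of the gene whose transcription start site (TSS) lay nearest among the transcripts the authors used. AMs (CD45+ Siglec-F+ CD11c+) had been sorted from lungs of 6-week-old female C57BL/6 mice, 3 samples from Scnn1b-Tg mice and 4 samples from WT littermates. Scnn1b-Tg mice overexpress the beta subunit of the epithelial sodium channel in airway epithelium under the club cell secretory protein promoter, which gives mucus-obstructed airways, and the AMs themselves are not the cells in which that promoter is active. Their genomic DNA was read by tagmentation-based whole-genome bisulfite sequencing. The labels do not state whether each sample is 1 mouse.

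A microRNA is cut by Drosha and Dicer from the hairpin of a longer transcript, is loaded on an Argonaute protein, and lowers the output of mRNAs whose 3' UTRs pair with its seed, bases 2 to 8 from its 5' end. Many hairpins lie in introns of coding genes or of long noncoding RNAs (lncRNAs) and are made from the transcript of that host, so the TSS that governs them can be far from the hairpin. Annotations that list a hairpin as a gene put its TSS at the first base of the hairpin. In macrophages, microRNAs tune Toll-like receptor signalling, cytokine output and polarisation. DNA methylation here is the share of methylated reads at CpGs, and the table held 1 mean level per region and genotype, with no value per sample and no coverage. Values given for Scnn1b-Tg and WT AMs are these levels, fractions between 0 and 1. They have no SD, the depth at each region is unknown, and no test was run on the difference that had selected the regions. The header of the table names no genotype, so every direction rests on the assignment of the level columns given with the processing.

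The mature sequences (RefSeq, GRCm38.p6) are shown for the microRNAs on which the results turn, with the seed in capitals. Of the 53 genes, 45 had a mature sequence in the RefSeq table. Those of genes with a promoter-class DMR come first, followed by miR-1900, whose gene had 3 DMRs.
miR-26b-5p: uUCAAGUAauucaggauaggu
miR-671-5p: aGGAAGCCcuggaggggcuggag
miR-7658-5p: uGUGGGCGuggcggugcugg
miR-1188-5p: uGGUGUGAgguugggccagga
miR-361-5p: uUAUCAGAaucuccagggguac
miR-1900: gGCCGCCCucucugguccuuca

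The 67 mature sequences of these 45 genes held 66 seeds, so nearly all members had seeds of their own within the set. The 1 seed found at more than 1 member gene was CUGUUCU, carried by miR-26b-3p and by miR-7039-3p. The DMR of Mir26b was hypermethylated and that of Mir7039 hypomethylated in Scnn1b-Tg AMs.
miR-26b-3p: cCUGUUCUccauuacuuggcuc
miR-7039-3p: cCUGUUCUgcccucccuuccag

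MicroRNAs known from macrophages, the let-7 family and airway epithelium are shown next, because their DMRs are described as lists. let-7j, on chromosome 3, differed from let-7a-5p within the seed by G8U (let-7a base, position from the 5' end, let-7j base), so it did not have the seed that the other 9 let-7 guide strands shared, and it had that of miR-202-3p. miR-6353, whose DMR had the lowest Scnn1b-Tg minus WT difference, carried the seed of the miR-15 and miR-16 family.
miR-29b-3p: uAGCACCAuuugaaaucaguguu
miR-511-3p: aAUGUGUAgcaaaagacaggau
miR-181a-5p: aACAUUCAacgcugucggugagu
miR-148a-3p: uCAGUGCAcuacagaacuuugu
let-7j: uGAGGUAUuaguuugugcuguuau
miR-205-5p: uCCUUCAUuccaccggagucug
miR-6353: uAGCAGCAcguauuuauccuauu

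DMRs of 5 promoter-class genes are shown on the plus strand of mm10, because they lie close to their hairpins, with CpGs in capitals and up to the G of the last CpG. That of Mir7658, which overlaps its hairpin, is not printed because 55 of its bases are untranslated exon sequence. For Mir671, whose DMR is longer, the stretch nearest to the hairpin is given.
Mir26b DMR, chr1:74393265-74393548: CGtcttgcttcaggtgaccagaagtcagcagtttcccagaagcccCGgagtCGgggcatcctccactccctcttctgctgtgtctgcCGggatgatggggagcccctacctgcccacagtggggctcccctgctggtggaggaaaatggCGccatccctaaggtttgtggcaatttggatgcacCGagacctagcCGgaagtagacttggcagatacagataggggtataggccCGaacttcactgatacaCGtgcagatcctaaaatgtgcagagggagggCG
Mir671 DMR, chr5:24591479-24591778: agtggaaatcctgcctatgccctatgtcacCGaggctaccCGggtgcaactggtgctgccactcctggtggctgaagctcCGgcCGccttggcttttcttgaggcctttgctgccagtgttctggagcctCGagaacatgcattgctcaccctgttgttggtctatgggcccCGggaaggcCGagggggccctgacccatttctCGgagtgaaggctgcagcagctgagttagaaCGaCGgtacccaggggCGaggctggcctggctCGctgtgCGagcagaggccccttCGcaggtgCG
Mir1188 DMR, chr12:109612804-109613044: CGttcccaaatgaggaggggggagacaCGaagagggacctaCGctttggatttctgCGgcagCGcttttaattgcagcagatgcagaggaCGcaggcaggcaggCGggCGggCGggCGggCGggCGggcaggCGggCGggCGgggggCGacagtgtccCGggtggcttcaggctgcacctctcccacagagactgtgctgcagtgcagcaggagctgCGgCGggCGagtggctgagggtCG
Mir7039 DMR, chr5:144898438-144898585: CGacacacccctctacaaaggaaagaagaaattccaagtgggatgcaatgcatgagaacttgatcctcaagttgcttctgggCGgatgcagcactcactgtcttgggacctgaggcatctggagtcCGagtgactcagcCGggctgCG
Mir361 DMR, chrX:113073745-113073813: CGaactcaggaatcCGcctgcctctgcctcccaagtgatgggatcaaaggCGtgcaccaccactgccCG

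The Mir1188 sequence held a run of CGgg repeats and 21 CpGs on the reference, of which the table counted 19. The Mir26b, Mir7039 and Mir361 sequences held the number of CpGs that the table gave, 10, 5 and 4.

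The 63 DMRs were mostly less methylated in Scnn1b-Tg AMs. Of them, 47 (74.6%, 95% exact Clopper-Pearson interval 62.1% to 84.7%, which covers counting only) were hypomethylated, against 72.9% of all 1926 DMRs. The other 16 (25.4%) were hypermethylated, against 27.1% of all DMRs. Both shares were near those of the whole table. The median level of the 63 DMRs was 0.574 in Scnn1b-Tg and 0.792 in WT AMs, where the medians over all DMRs were 0.591 (Scnn1b-Tg) and 0.768 (WT). The median absolute difference was 0.228, and it was 0.233 over all DMRs. In WT AMs 28 DMRs had a level of at least 0.8, and each of the 28 was hypomethylated in Scnn1b-Tg AMs, as was each of the 832 such DMRs of the table. Levels cannot exceed 1, so regions this high had little room to rise. Of the 15 DMRs under 0.5 in WT AMs, 10 were higher in Scnn1b-Tg AMs, against 286 of 343 such DMRs in the table.

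**Figure D1:**
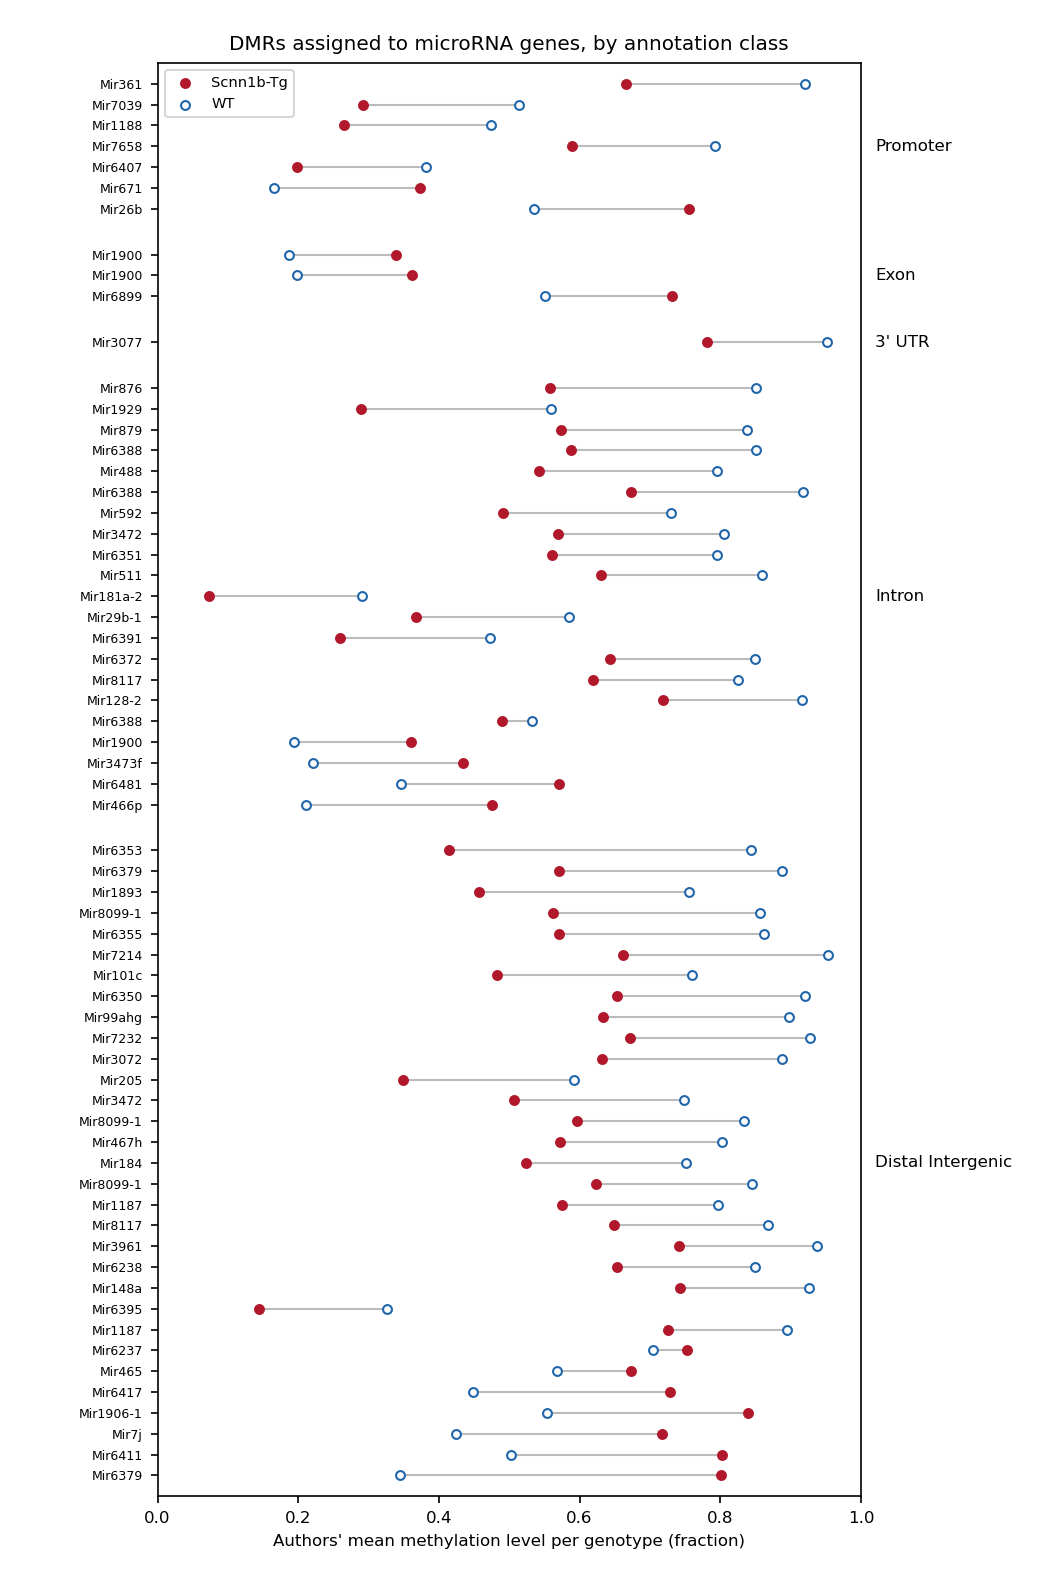
Mean methylation level (fraction, x axis) of each of the 63 DMRs assigned to a microRNA gene, one row per DMR, grouped by annotation class and ordered by the difference. Filled points are Scnn1b-Tg AMs, open points WT AMs, and grey lines join both. In 47 rows the Scnn1b-Tg point is left of the WT point, and in 16 it is right of it.

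Most members were far from the hairpin they were named for. The table placed 7 of the 63 DMRs (11.1%) in the promoter class, up to 3 kb from the start, 3 (4.76%) in exons, 1 in a 3' UTR, 21 (33.3%) in introns and 31 (49.2%) in distal intergenic sequence. Over all DMRs these shares were 11.0% for promoters, 2.91% for exons, 26.6% for introns and 57.7% for intergenic sequence. DMRs lay at a median of 48.4 kb from the TSS (46.7 kb over all DMRs), 12 DMRs lay within 10 kb, and 26 (41.3%, against 34.8% of all DMRs) lay beyond 100 kb. The farthest in the intergenic class was a DMR of Mir8099-1 at 790 kb, but RefSeq places that hairpin on chromosome 3. Among hairpins at the same place in RefSeq the farthest was that of Mir7232 at 615 kb. The nearest in the class was the DMR of Mir184 at 11.9 kb. Hypomethylated DMRs lay at a median of 89.2 kb and hypermethylated ones at 29.2 kb, where the medians over all DMRs were 55.4 kb (hypomethylated) and 23.2 kb (hypermethylated). Every RefSeq gene start was then considered, with predicted lncRNAs, pseudogenes and immunoglobulin segments included. The nearest start was that of a microRNA gene for 23 of the 63 DMRs.

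**Figure D2:**
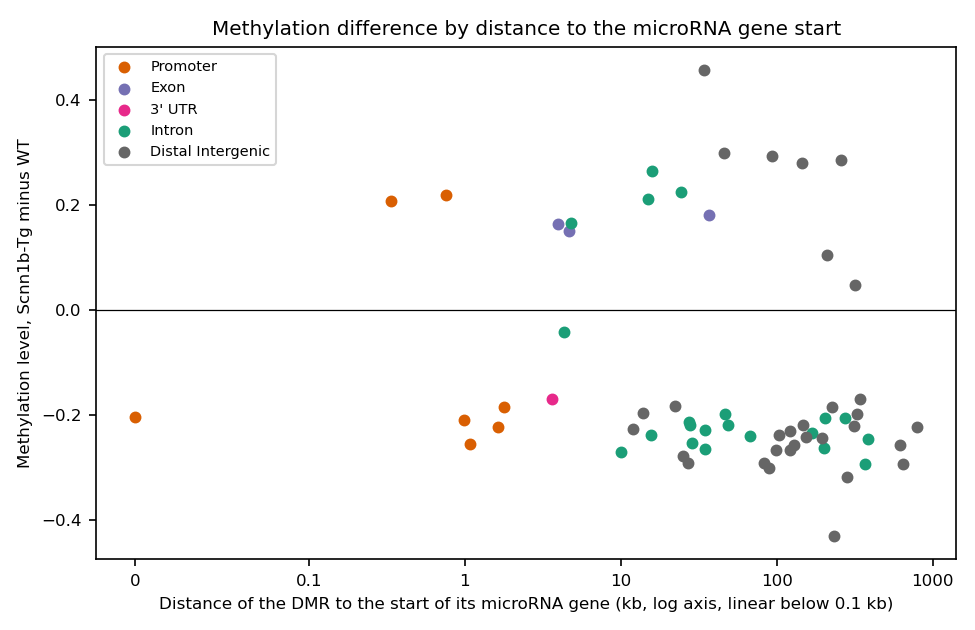
Difference in methylation level, Scnn1b-Tg minus WT (y axis), against distance to the start of the assigned microRNA gene (x axis, kb, log axis that is linear below 0.1 kb) for the 63 DMRs, coloured by annotation class. The 7 promoter-class points lie between 0 and 1.79 kb, with 5 below the zero line, and 26 points lie beyond 100 kb.

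Within classes, 5 of 7 promoter DMRs, 17 of 21 intron DMRs and 24 of 31 intergenic DMRs were hypomethylated in Scnn1b-Tg AMs. All 3 exon DMRs were hypermethylated, but 2 of these 3 lie 575 bp apart in the gene Icam5 and are not separate measurements. Over all DMRs the hypomethylated share was 50.2% for promoters, 75.8% for introns, 77.5% for intergenic sequence and 44.6% for exons, so the intergenic count was near that of the table. By RefSeq position, 8 members overlapped an exon of a coding gene and 2 of these 8 were hypomethylated, against 76 of 163 (46.6%) such DMRs in the table. Both Icam5 exon regions count among the 8. Of the 27 members in no RefSeq gene, 22 (81.5%) were hypomethylated, against 78.0% of the 1054 such DMRs in the table. By share, the members held more intronic and fewer intergenic regions than the table. In both sets hypermethylation was most frequent in exons, where the members had DMRs of only 2 microRNA genes. None of these shares was tested.

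**Figure D3:**
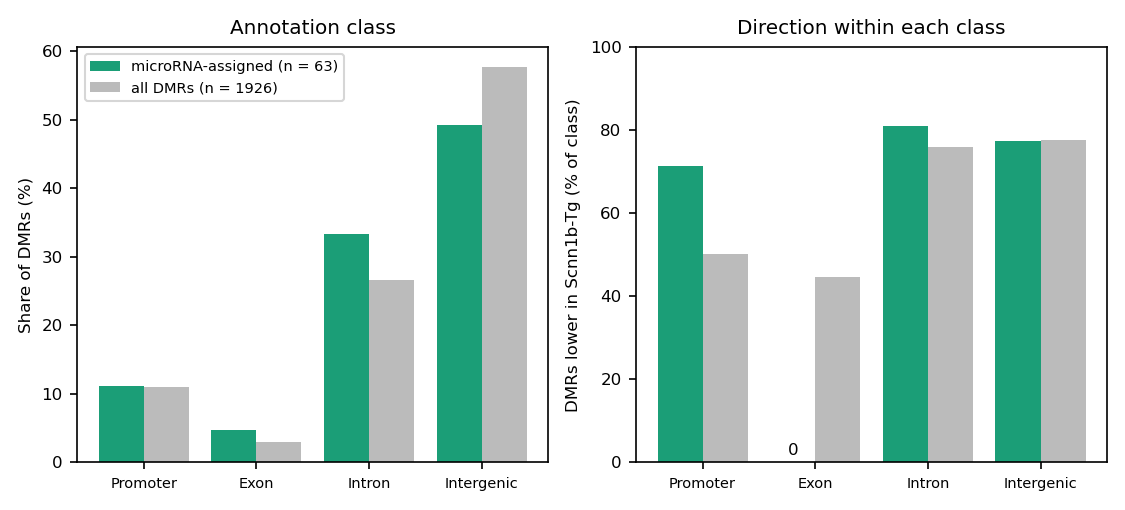
Left, share of DMRs in each annotation class (%, y axis) for the 63 microRNA-assigned DMRs (green) and all 1926 DMRs (grey). Right, share of each class that was lower in Scnn1b-Tg AMs, with 0 of 3 exon DMRs lower among the members. Neighbouring regions in Icam5 make up 2 of these 3.

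Only 4 of the 1926 DMRs lay within 1 kb of a hairpin that RefSeq lists, and all 4 were members. The DMR of Mir7658, 13 CpGs at chr4:156229979-156230234, overlapped its hairpin and was methylated to 0.589 in Scnn1b-Tg and 0.792 in WT AMs. It lay in exon 12 of 12 of Klhl17, an actin-binding adaptor of the kelch family. The DMR of Mir1188, 19 CpGs and 862 bp from the hairpin, was methylated to 0.265 in Scnn1b-Tg and 0.474 in WT AMs. Mir1188 is read from intron 2 of 20 of Rian, a maternally expressed lncRNA of the imprinted Dlk1-Dio3 region, and the DMR was in the same intron. Both regions were thus less methylated in Scnn1b-Tg AMs.

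The other 2 of these 4 DMRs were more methylated in Scnn1b-Tg AMs. That of Mir671, 36 CpGs over 700 bp and 336 bp upstream of the hairpin, was methylated to 0.373 in Scnn1b-Tg and 0.166 in WT AMs. Its area statistic of 225, a sum of test statistics over the CpGs, was the largest of the 63. DMR and hairpin were both in exon 4 of 5 of Chpf2, a chondroitin sulfate synthesis gene. The DMR of Mir26b, 10 CpGs and 762 bp upstream of the hairpin, was methylated to 0.755 in Scnn1b-Tg and 0.536 in WT AMs. It overlapped exon 2 of 7 of Ctdsp1, a small phosphatase of the RNA polymerase II tail, and the hairpin was in intron 4 of 6.

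The 3 promoter-class DMRs beyond 1 kb were hypomethylated introns. That of Mir361 (chrX:113073745-113073812) was in intron 9 of 14 of Chm, which encodes a Rab escort protein, methylated to 0.666 in Scnn1b-Tg and 0.921 in WT AMs. That of Mir7039 (chr5:144898438-144898584) was in intron 5 of 18 of Smurf1, a ubiquitin ligase of the TGF-beta and BMP pathways, methylated to 0.292 in Scnn1b-Tg and 0.514 in WT AMs. The Mir7039 hairpin was in the next intron, 1.62 kb away. That of Mir6407 (chr19:53008754-53008961) was in intron 8 of 20 of Xpnpep1, an aminopeptidase, methylated to 0.198 in Scnn1b-Tg and 0.382 in WT AMs. A second DMR 38.1 kb away, assigned to Xpnpep1 itself, went the same way, with 0.293 in Scnn1b-Tg and 0.611 in WT AMs.

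All 7 promoter-class DMRs therefore lay inside the gene that holds the hairpin, and 1 of the 7 was within 3 kb of the start of that gene. That was the Mir26b DMR, 1.66 kb from the start of Ctdsp1. The others were 4.33 kb (Chpf2), 4.62 kb (Klhl17), 8.86 kb (Rian), 29.7 kb (Xpnpep1), 67.3 kb (Smurf1) and 112 kb (Chm) from it. For 6 of the 7 the class thus referred to the start of the hairpin and not to the start of its RefSeq host gene. Starts of other coding genes can be nearer than that of the host. The Mir7658 DMR was 1.44 kb from the start of Plekhn1, which does not hold the hairpin.

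**Figure D4:**
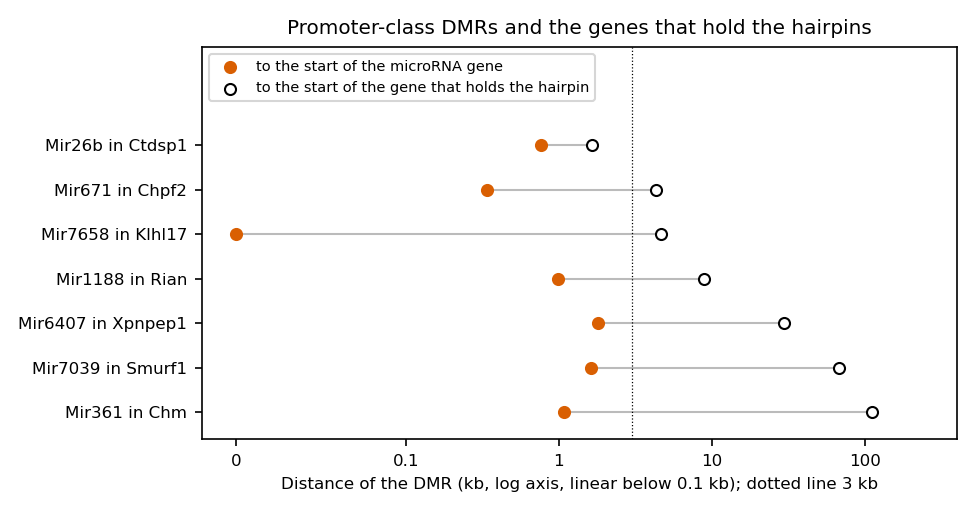
Distance (kb, log axis that is linear below 0.1 kb) of each promoter-class DMR to the start of its microRNA gene (filled) and to the start of the gene that holds the hairpin (open), with a dotted line at 3 kb. All filled points lie left of the line, and 1 open point, that of Ctdsp1, does.

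Host genes were shared by DMR and hairpin for many members. For 5 DMRs of Mir466p, Mir8099-1 and Mir1906-1 the table put the gene where RefSeq does not, and Mir99ahg names a host transcript, so hairpins of 57 DMRs were placed. The hairpin was inside another gene for 40 of these 57 DMRs (34 genes). DMR and hairpin shared a gene for 29 DMRs (25 genes), of which 21 were hypomethylated and 8 hypermethylated in Scnn1b-Tg AMs, where 66.7% of all DMRs inside a RefSeq gene were hypomethylated. In 24 of the 29 a shared gene was on the strand of the hairpin, in 11 both were in the same intron, and in 1 the DMR was within 3 kb of the host start. Of the 57, 17 of 27 DMRs upstream of the hairpin and 25 of 29 downstream were hypomethylated. Over all DMRs, whatever their side, the share was 72.9%. It was not computed by side for all DMRs, so whether the contrast is particular to the members is unknown. No share given here was tested.

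The members lay in 24 coding genes, and 4 of these 24 had a DMR under their own symbol, where 1330 of the 21900 coding genes in RefSeq (6.07%) had one. Those with none included Smurf1, Mrc1, Bcl2, Klf7, Atg5, Ctdsp1, Chpf2 and Icam5. The 4 with one were Xpnpep1, Zfp532, Lingo2 and Ppargc1a. The study itself names Smurf1 among its loci with less methylation and more accessible chromatin in Scnn1b-Tg AMs.

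Besides Chpf2 and Ctdsp1, the hypermethylated DMRs that shared a gene with their hairpin lay in Icam5, Klf7, Bcl2 and Wars2. Mir1900 had 3 DMRs, which lay in exon 7, exon 9 and intron 9 of Icam5, a cell adhesion molecule known from neurons, on the strand opposite to the hairpin. Their levels ranged from 0.338 to 0.362 in Scnn1b-Tg and from 0.188 to 0.198 in WT AMs. The gaps between them were 575 and 123 bp, so the smoothed levels are not separate measurements. They are shown on the plus strand with CpGs in capitals.
Icam5 exon 7, chr9:21036297-21036377: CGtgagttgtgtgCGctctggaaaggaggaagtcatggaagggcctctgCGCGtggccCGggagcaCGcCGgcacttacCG
Icam5 exon 9, chr9:21036952-21037016: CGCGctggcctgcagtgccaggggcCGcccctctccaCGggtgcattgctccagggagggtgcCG
Icam5 intron 9, chr9:21037139-21037208: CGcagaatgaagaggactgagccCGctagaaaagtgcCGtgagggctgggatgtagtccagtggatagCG

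The DMR of Mir6899, in exon 3 of 5 of Klf7 (a Krüppel-like transcription factor), had 0.732 in Scnn1b-Tg and 0.551 in WT AMs over 11 CpGs. It was the farthest exon DMR, 36.5 kb from its hairpin. The DMR of Mir3473f, in an intron of Bcl2, which blocks apoptosis, had 0.434 in Scnn1b-Tg and 0.221 in WT AMs. The DMR of Mir6481 was in intron 1 of 6 of Wars2, a mitochondrial tryptophanyl-tRNA synthetase on the other strand, with 0.571 in Scnn1b-Tg and 0.346 in WT AMs. The WT levels in these 4 genes were below the median of the members, 0.792. So was that of every hypermethylated member (at most 0.705) and of every hypermethylated DMR of the table (at most 0.790). The upper bound of a fraction limits how high the WT level of a hypermethylated region can be.

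Hypomethylated host introns were more numerous. Mir1929 had its DMR in the same intron of Atg5, an autophagy gene, with 0.289 in Scnn1b-Tg and 0.559 in WT AMs. Mir6391 had its DMR in Abcc4, an organic anion exporter, with 0.259 in Scnn1b-Tg and 0.472 in WT AMs over 9 CpGs. Both had levels under 0.6 in WT AMs. The other coding hosts were Astn1 (Mir488), Lingo2 (Mir876), Elapor2 (Mir879), Grm8 (Mir592), Arpp21 (Mir128-2), Rtl4 (Mir3472) and, in its 3' UTR, Sap18 (Mir3077), with levels of 0.491 to 0.782 in Scnn1b-Tg and 0.731 to 0.951 in WT AMs. Astn1, Grm8, Lingo2 and Arpp21 are known from neurons. Further lncRNA hosts were 6030407O03Rik (Mir6351, 0.561 in Scnn1b-Tg and 0.795 in WT AMs) and 5730522E02Rik (Mir6372, 0.643 in Scnn1b-Tg and 0.849 in WT AMs).

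For 7 DMRs the region was in a gene in which no hairpin of the assigned microRNA was placed, and 4 of the 7 were hypomethylated. The DMR of Mir6417 was in intron 1 of 13 of Ppargc1a, which encodes a coactivator of mitochondrial genes, with 0.728 in Scnn1b-Tg and 0.449 in WT AMs. The DMR of Mir466p was in an intron of Zfp532, a zinc finger gene, with 0.476 in Scnn1b-Tg and 0.211 in WT AMs, and 2 other DMRs assigned to Zfp532 were also higher in Scnn1b-Tg AMs. That of Mir465, in a predicted gene on the X chromosome, had 0.673 in Scnn1b-Tg and 0.568 in WT AMs, but its area statistic of -0.79 had the opposite sign, and the reference holds 17 CpGs where the table counted 4. The hypomethylated ones were assigned to Mir205, Mir29b-1, Mir148a and Mir467h, all in lncRNA genes, the last with 0.573 in Scnn1b-Tg and 0.803 in WT AMs.

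MicroRNAs with known roles in macrophages and inflammation were compared as a list. Of 73 such genes 4 had a DMR assigned (5.48%, against 4.32% of all 1228 microRNA genes in RefSeq), and all 4 DMRs were hypomethylated in Scnn1b-Tg AMs. Mir511, which lies in intron 5 of 29 of Mrc1 (the mannose receptor CD206, a marker of alternative activation), had its DMR in intron 15 of Mrc1. The level there was 0.631 in Scnn1b-Tg and 0.859 in WT AMs over 7 CpGs. All of this region is repeat-masked, as are those of Mir361, Mir1929, Mir7j and others. Of the 63 DMRs, 26 (41.3%, against 46.1% of all DMRs) were at least 50% repeat-masked. The Mrc1 region, 34.8 kb from the hairpin, is shown because it lies in the receptor gene itself.
Mrc1 intron 15, chr2:14295836-14295917: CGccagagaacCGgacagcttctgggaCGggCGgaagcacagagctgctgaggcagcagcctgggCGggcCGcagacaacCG

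Mir181a-2 had the lowest Scnn1b-Tg level of the 63 DMRs, 0.0733 against 0.291 in WT AMs over 4 CpGs, in an intron of Nr6a1 (a nuclear receptor on the other strand) and of its antisense transcript Nr6a1os. miR-181a is known from lymphocyte development. Mir29b-1, which encodes a microRNA known to target de novo DNA methyltransferases and collagens, had a DMR of 16 CpGs in an intron of the lncRNA Lncpint, 48.4 kb away. Its level was 0.367 in Scnn1b-Tg and 0.585 in WT AMs. Mir148a had its DMR 226 kb away, with 0.742 in Scnn1b-Tg and 0.926 in WT AMs over 4 CpGs. None of these 4 DMRs was within 10 kb of its hairpin.

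The next 3 lists had 1 DMR each, beside the 4.32% of all microRNA genes with one. The sizes of these lists and of the macrophage list count some host transcripts (Mir124-2hg, Mir17hg, Lncppara, Mir205hg and Mirg). Their shares are therefore not strictly those of hairpin genes. Of 15 let-7 genes 1 (6.67%) had a DMR, Mir7j (let-7j), 92.9 kb away and hypermethylated, with 0.717 in Scnn1b-Tg and 0.424 in WT AMs over 9 CpGs. Of 13 listed genes for microRNAs known from airway epithelium 1 (7.69%) had a DMR, Mir205, which keeps cells epithelial. Its DMR had 0.349 in Scnn1b-Tg and 0.591 in WT AMs over 14 CpGs at 195 kb. Of the 53 listed genes of the imprinted Dlk1-Dio3 cluster 1 (1.89%) had a DMR, Mir1188. The Mir1188 DMR lay 1.21 kb from the hairpin of Mir341 and 5.21 kb from that of Mir370. It was the nearest DMR for both. Mir3072, which was not on the list, has its hairpin in intron 6 of 7 of Mirg, a listed lncRNA of this cluster. The Mir3072 DMR, 129 kb away, had 0.632 in Scnn1b-Tg and 0.888 in WT AMs. Of 38 genes that make or use microRNAs 1 (2.63%, against 6.07% of coding genes) had a DMR, Tnrc6b, a scaffold that recruits deadenylases to Argonaute, with 0.634 in Scnn1b-Tg and 0.871 in WT AMs over 15 CpGs of its 3' UTR.

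Most member genes with more than 1 DMR kept 1 direction, where 72.9% of all DMRs were hypomethylated. The share for such genes over the whole table was not computed. Of the 53 genes 46 had 1 DMR, 4 had 2 and 3 had 3. The 3 DMRs of Mir8099-1 had 0.563 to 0.623 in Scnn1b-Tg and 0.834 to 0.856 in WT AMs, those of Mir1187 had 0.576 and 0.726 in Scnn1b-Tg and 0.796 and 0.894 in WT AMs, and those of Mir8117 had 0.619 and 0.648 in Scnn1b-Tg and 0.824 and 0.868 in WT AMs. Mir3472 had 0.569 and 0.506 in Scnn1b-Tg and 0.806 and 0.748 in WT AMs. All of these were hypomethylated, but RefSeq places Mir8099-1 on chromosome 3, so its DMRs are not near its hairpin. The 3 DMRs of Mir1900, described above, were hypermethylated and lay close together in Icam5. Mir6379 was the exception, with 0.801 in Scnn1b-Tg and 0.345 in WT AMs at one DMR, the largest difference of the 63, and 0.571 in Scnn1b-Tg and 0.887 in WT AMs at the other. The 3 DMRs of Mir6388, in the immunoglobulin heavy chain locus, were lower in Scnn1b-Tg AMs, but at the nearest one, 4.33 kb away, the difference was -0.042 (0.489 in Scnn1b-Tg and 0.532 in WT AMs). There the reference holds 15 CpGs over 2312 bp and the table counted 4. At the other 2, at 201 and 382 kb, the levels were 0.588 and 0.674 in Scnn1b-Tg and 0.850 and 0.918 in WT AMs.

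By area statistic, the 5 largest hypomethylated DMRs were those of Mir1188 (-112), Mir29b-1 (-85.1), Mir7658 (-67.1), Mir205 (-65.0) and Mir6395 (-59.7). Mir6395 had 0.144 in Scnn1b-Tg and 0.326 in WT AMs over 12 CpGs in intergenic sequence. The 5 largest hypermethylated DMRs were those of Mir671, Mir6899 (51.0), Mir26b (45.7), Mir466p (42.3) and the Icam5 exon 7 region of Mir1900 (37.7). Regions with many CpGs lead by this measure, since it is a sum. Of the 63 DMRs 32 had 4 CpGs (50.8%, against 42.9% of all DMRs). The median GC content of the 63 DMRs was 48.4% (49.0% over all DMRs). It was 57.6% in hypermethylated and 45.8% in hypomethylated members. Over all DMRs it was 52.6% (hypermethylated) and 47.7% (hypomethylated), so the table showed a difference in the same direction.

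The remaining members were intergenic. Chosen after the values were seen, Mir6353 had 0.415 in Scnn1b-Tg and 0.844 in WT AMs over 4 CpGs at 232 kb. Mir184 had 0.524 in Scnn1b-Tg and 0.751 in WT AMs, and a DMR 68.1 kb away assigned to Rasgrf1 went the other way, with 0.661 in Scnn1b-Tg and 0.437 in WT AMs. Another DMR lay within 100 kb of 9 members (14.3%, against 19.8% of all DMRs) and had the same direction for 7 of them, against 256 of 382 (67.0%) over all DMRs. The lowest absolute difference among intergenic members was that of Mir6237, 0.048 (0.752 in Scnn1b-Tg and 0.705 in WT AMs). It and the nearest Mir6388 DMR were the 2 members below an absolute difference of 0.1. The study states an average change above 0.1 as a criterion for DMRs. Of the 1926 DMRs of the table, 37 were below it. The 63 DMRs were spread over 19 chromosomes, with 8 each on chromosomes 1, 5, 9 and 12 and none on chromosome 15.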

How the data were processed

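Tagmentation-based whole-genome bisulfite sequencing was done on AMs of 3 Scnn1b-Tg and 4 WT samples. Per the submitters' processing notes, reads were processed with Trimmomatic 0.36, BWA 0.7.8, Picard and MethylDackel on mm10, and per the study's methods profiles were smoothed with bsmooth and DMRs called with DSS. Smoothing makes levels of neighbouring CpGs depend on each other, and tagmentation of little DNA can widen differences between samples. The study's methods name ChIPseeker with UCSC known genes for regions of accessible chromatin, and no annotation tool for DMRs.

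The deposited methylation levels are fractions, averaged by the authors across the CpGs of each region and across samples of each genotype. The difference of both fractions and the area statistic are scores deposited by the authors. The table also gives the number of CpGs, the length, the annotation and the distance to the TSS. The header names no genotype. The first level was taken as Scnn1b-Tg because it was the lower one in 1404 DMRs, the number the study gives as reduced in Scnn1b-Tg AMs, and every direction here rests on that. No column of other samples was present (0 left out). The table gives no coverage, so counting error could not be attached to a level.

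Members, lists and settings were chosen with earlier results of these data known. Named were microRNA genes with a promoter-class DMR or a DMR within 1 kb of the hairpin, the 5 DMRs per direction with the largest area statistic, genes with more than 1 DMR, genes on a list, genes whose DMR lies in an exon or intron of another gene, and the nearest and farthest of each class. Host genes, starts, exons and sequences came from RefSeq on GRCm38.p6, the build of the table: all 1926 DMRs started and ended on a reference CpG, the CpG number was equal in 1707, and the distance recomputed from the table's gene ends was equal in 1926. Pseudogenes and immunoglobulin segments did not count as genes that hold a DMR or a hairpin. Their starts did count in the search for the nearest RefSeq start. The lists held 75 macrophage and inflammation entries (73 matched), 15 of the let-7 family, 13 of airway epithelium, 53 of the Dlk1-Dio3 cluster, and 40 entries for 38 microRNA pathway genes. Some entries of the microRNA lists were host transcripts. No test was run, because the regions were selected on the difference and had no value per sample; counts and medians stand beside those of all DMRs. Sorted cell identity could not be checked, since the table holds no expression. Python 3.11.15, pandas 2.3.3, numpy 2.4.6, scipy 1.17.1, pysam 0.24.0 and matplotlib 3.10.9 were used, and the functions were tested on simulated regions. The alternatives were a minimum difference of 0.2, at least 10 CpGs, 1 DMR per gene, merging within 50 kb, no X chromosome, reassignment to RefSeq starts, no host transcripts, sense genes only, a larger overlap, and promoters up to 1 kb.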

Additional observations from a re-analysis of the deposited data

How the results depend on the processing

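Of 45 values under 10 alternative settings, 36 stayed within the interval of the deposited value (counts within 1.5 times of it), and 9 moved. With at least 10 CpGs, 9 DMRs were left, the median absolute difference was 0.209, 44.4% were in the promoter class, the median distance was 22.4 kb and 77.8% lay inside another gene. With DMRs assigned by the nearest RefSeq start, 31 DMRs were left (23 members and 8 others), 22.6% were within 3 kb of the start, the median distance was 11.9 kb and 83.9% lay inside another gene. The share lower in Scnn1b-Tg AMs ranged over the settings from 64.5% to 79.2%. Both settings that moved values keep other or fewer DMRs by construction. No paired analysis was possible because the level columns hold 1 mean per genotype and no sample, although numbers 1, 3 and 5 occur in both genotypes, and no replicate could be left out for the same reason. Read coverage of each region, which limits its level, is unknown. The study gives a minimum CpG coverage per genotype group over the whole genome only.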

Other observations

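Some DMRs near microRNA hairpins carried the symbol of a coding gene. They were chosen after the values were seen. For 8 DMRs assigned to coding genes, the nearest RefSeq start was that of a microRNA gene. Near Mir335, which lies in the imprinted gene Mest, a DMR 3.49 kb from the microRNA start had 0.528 in Scnn1b-Tg and 0.354 in WT AMs. Near Mir499, in the myosin gene Myh7b, a DMR at 7.81 kb had 0.647 in Scnn1b-Tg and 0.469 in WT AMs. The Tnrc6b DMR was 8.68 kb from the start of Mir5113.

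Among the 73 listed macrophage and inflammation genes, 8 had any DMR within 50 kb of the hairpin or host transcript and 1 within 10 kb. The median distance was 692 kb. The closest was Mir22, 4.52 kb from a promoter-class DMR of Tlcd2 with 0.372 in Scnn1b-Tg and 0.198 in WT AMs. Mir150 was 27.3 kb from a DMR of Rcn3 with 0.667 in Scnn1b-Tg and 0.392 in WT AMs. Of microRNAs with well-known roles in macrophage activation, Mir21a was 63.5 kb from the nearest DMR, in an intron of Rps6kb1 (0.511 in Scnn1b-Tg and 0.851 in WT AMs), while Mir142 was 842 kb, Mir155 1059 kb, Mir223 1516 kb and Mir146 2594 kb from theirs. Of the let-7 family, Mirlet7g was 47.5 kb from a DMR in exon 2 of Tlr9, the receptor for unmethylated CpG DNA, with 0.319 in Scnn1b-Tg and 0.162 in WT AMs over 12 CpGs.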
